A study of Mus musculus with 80 samples.

Results

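The splice donor (5′ splice site) of *Ptbp1* exon 3 was edited in mouse Hepa1-6 hepatoma cells (Hepa) with a single sgRNA and 1 of 2 adenine base editors that differ in their deaminase, SpG-ABE8e and SpG-ABEmax. The samples are the 9 of 80 in the series that GEO's labels assign to sgRNA3 and to one of these editors or to the control. The study's list of oligos gives the protospacer of these samples under another name, sgRNA-02. They form 3 groups of 3 replicates: SpG-ABE8e with sgRNA3, SpG-ABEmax with sgRNA3, and the control, which per the study's methods received the sgRNA and no editor. All 9 are cells of the same line, derived from a C57L mouse hepatoma, and were transfected with Lipofectamine 2000 (0.5 ul) and 400 ng of DNA in total, and the series describes its replicates as biological. Genomic DNA around the site was amplified by PCR and sequenced, and each sample is a table of aligned sequences (alleles) of a 40-base window with the number of reads of each.

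Adenine base editors join a Cas9 that nicks a single strand to a deaminase that turns adenine into inosine, which is read as guanine. Their usual product is thus an A-to-G change on the strand that carries the protospacer, which is T-to-C on the other. ABE8e carries a more active, later-evolved deaminase than ABEmax. SpG is a Cas9 variant that accepts protospacer-adjacent motifs (PAMs) with a single guanine (NGN) where the parent enzyme needs NGG. Nearly all introns begin with GT, and an adenine opposite that T is therefore a natural target for these editors. PTBP1 is an RNA-binding protein that represses the inclusion of many alternative exons.

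The protospacer lies on the minus strand of chromosome 10 at chr10:79694644-79694663 of GRCm39, a placement made here by sequence match, and both it and the window (chr10:79694634-79694673) match 1 place in that genome. *Ptbp1* (ENSMUSG00000006498.18, chr10:79690261-79700605, plus strand) has its exon 3 of 14 at chr10:79694586-79694658 in transcript ENSMUST00000172282.8, and 24 of 30 annotated transcripts of the gene use this donor. Positions are counted on the guide strand from 1 at the protospacer's 5′ end, with −1 for the base before it, so the window runs from −10 to 30 and the PAM occupies 21 to 23. A substitution is written with the reference base first, then the position, then the base read, as in A4G. The target adenine is position 4 at chr10:79694660, the second intron base, opposite the T of the donor GT. Position 6 is the last base of the exon, and 25 of the 40 window bases are exonic. The site is shown as the protospacer with the target in capitals, the window with the 4 protospacer adenines in capitals, and the plus strand with the donor dinucleotide in capitals.
protospacer: cttAcctgctgaggcagagc
PAM: TGC
window, guide strand: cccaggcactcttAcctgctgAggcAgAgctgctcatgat
window, plus strand: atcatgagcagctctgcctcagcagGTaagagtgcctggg

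The alleles that carry the comparison are printed from position −10 to 20 on the guide strand, with the changed bases in capitals. They are the reference, the target edit alone, and the alleles in which a further adenine or the cytosine at position 6 was changed.
reference: cccaggcactcttacctgctgaggcagagc
A4G: cccaggcactcttGcctgctgaggcagagc
A4G A12G: cccaggcactcttGcctgctgGggcagagc
A4G A16G: cccaggcactcttGcctgctgaggcGgagc
A-3G A4G: cccaggcGctcttGcctgctgaggcagagc
A4G C6T: cccaggcactcttGcTtgctgaggcagagc
A4G C6G: cccaggcactcttGcGtgctgaggcagagc
C6T: cccaggcactcttacTtgctgaggcagagc
C6G: cccaggcactcttacGtgctgaggcagagc

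The tables held 6669, 8029 and 6281 reads with SpG-ABE8e, 5193, 6307 and 6864 with SpG-ABEmax, and 4508, 399 and 4753 in the controls. Control replicate 2 is thus shallow: no read of a change there allows a share of up to 0.752%, against 0.0665% and 0.0631% in the other controls. Copies of a molecule made in the PCR cannot be told apart here, so all intervals and limits take in counting error alone. SpG-ABEmax replicates 1 and 3 differed by less than sampling noise (chi-square p = 0.498 over 15 read classes). Every other pair of replicates differed over such classes, which include the deposited numbers of changed bases, but over window alleles alone 4 other pairs also stayed within sampling noise, among them SpG-ABEmax replicates 2 and 3. Replicates 1 and 3 had 5 indel alleles in common, of 44 and 36, and they were kept as separate samples, as labelled. Counted as 1 sample, an alternative chosen after seeing the data, they gave a difference in target editing of 21.3 percentage points between the editors, with an exact permutation p = 0.2, the smallest possible for 3 samples against 2. With 3 samples against 3 the smallest two-sided exact permutation p is 0.1, so no such comparison could pass 0.05 and the sizes and the overlap of the groups carry the description. The smallest Benjamini-Hochberg value over the 120 measures compared between the editors by this exact permutation test was 0.24.

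Both editors converted the target adenine in most reads, and SpG-ABE8e did so in more. With SpG-ABE8e, 94.0%, 92.1% and 92.5% of reads carried A4G (92.9 ± 1.02%, mean ± s.d., n = 3). With SpG-ABEmax the shares were 73.3%, 71.0% and 71.0% (71.8 ± 1.30%, n = 3). In the controls A4G was read in 11 of 4508, 1 of 399 and 17 of 4753 reads, a mean of 0.284%. The groups did not overlap, and the difference between the editors of 21.1 percentage points was many times the spread within either group (exact permutation p = 0.1). The Wilson 95% interval of SpG-ABE8e replicate 1, for example, ran from 93.4% to 94.5%.

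**Figure D1:**
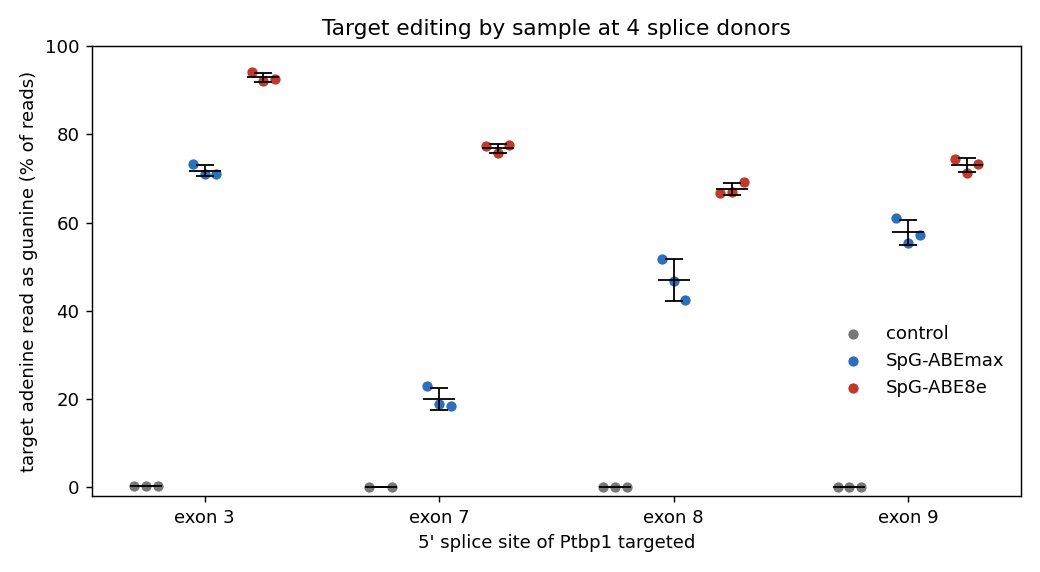
Percent of reads with the target adenine read as guanine (y axis) at the splice donors of exons 3, 7, 8 and 9 (x axis), 1 point per sample, with bars for the group mean ± s.d. At exon 3 the 3 SpG-ABE8e samples sit between 92.1% and 94.0%, above the 3 SpG-ABEmax samples at 71.0% to 73.3%, and the controls lie near 0.

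The same values read from the unedited side differ more in proportion. The donor GT was intact in 5.80%, 7.67% and 7.18% of reads with SpG-ABE8e (mean 6.89%) and in 25.9%, 28.4% and 28.2% with SpG-ABEmax (mean 27.5%), against 99.3% to 99.7% in the controls. The share of reads with an intact donor after SpG-ABE8e was thus 0.25 times that after SpG-ABEmax. Other outcomes at position 4 were rare. A4C was read in 3, 1 and 4 reads with SpG-ABE8e, in 6, 5 and 8 with SpG-ABEmax, and in 15, 0 and 11 in the controls. As a share of all reads its mean was thus no higher with an editor than in the controls. A4C can lie only on reads without A4G, of which the editors left fewer, so its share of all reads is not independent of target editing. A4T was read in 2, 4 and 2 reads with SpG-ABE8e, in 2, 5 and 5 with SpG-ABEmax and in 0, 0 and 1 in the controls.

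Most edited reads carried the target edit and nothing else in the protospacer. Among target-edited reads, 97.4%, 97.0% and 97.4% had no other substitution or indel there with SpG-ABE8e (97.3 ± 0.264%), and 98.9%, 98.5% and 99.0% with SpG-ABEmax (98.8 ± 0.251%). The groups did not overlap, and the purity was 1.52 percentage points lower with SpG-ABE8e (exact permutation p = 0.1). Because SpG-ABE8e edited more reads, the target edit alone still made up more of all reads, 90.3 ± 1.16% against 70.9 ± 1.34%.

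The remaining reads divide into classes in which the editors differ in opposite directions. A second A-to-G beside the target edit made up 1.36 ± 0.0520% of the SpG-ABE8e reads and 0.168 ± 0.0790% of the SpG-ABEmax reads. A cytosine change beside the target edit was found in 0.688 ± 0.126% and 0.191 ± 0.112%. Neither pair of groups overlapped, with SpG-ABE8e higher in both classes. Any other substitution beside the target edit was alike in the means, 0.446 ± 0.169% and 0.455 ± 0.0409%, with overlapping groups (exact permutation p = 1). Reads with a protospacer substitution but without the target edit were less frequent with SpG-ABE8e, 0.171 ± 0.0188% against 0.620 ± 0.0535%, and the controls had a mean of 0.595%. This class can lie only on reads without the target edit, of which SpG-ABE8e left fewer, so it is not independent of target editing. Indels in the window were also less frequent with SpG-ABE8e, 0.411 ± 0.122% against 0.850 ± 0.198%.

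**Figure D2:**
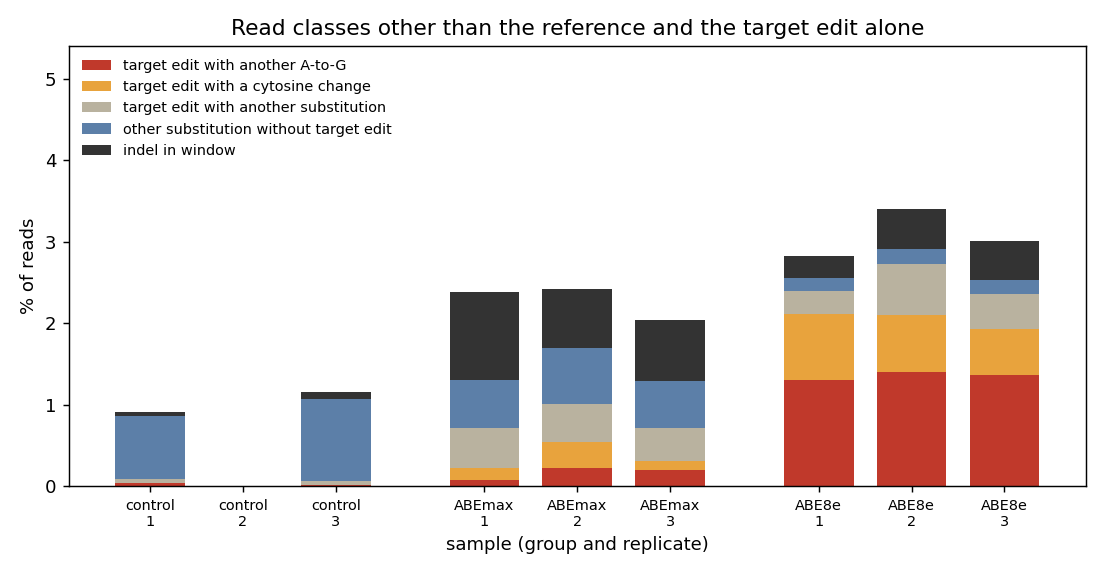
Percent of reads (y axis) in each class other than the reference protospacer and the target edit alone, as stacked bars, 1 bar per sample (x axis, group and replicate). Reads with a second A-to-G beside the target edit take up 1.30% to 1.41% of each SpG-ABE8e sample and 0.0770% to 0.222% of each SpG-ABEmax sample, while indels take up more of the SpG-ABEmax samples.

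The other 3 protospacer adenines, at positions 12, 16 and 18, are all exonic and were edited in few reads. A-to-G at any of them was found in 1.32%, 1.47% and 1.40% of reads with SpG-ABE8e and in 0.135%, 0.270% and 0.277% with SpG-ABEmax, 6.15 times as many on the means. The controls had 0.155%, 0% and 0.105%, which overlap the SpG-ABEmax values. The groups of the 2 editors did not overlap (exact permutation p = 0.1), with a difference of 1.17 percentage points. Editing of 3 or more adenines in a read was seen in 1 read.

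Position 12 gave most of it. A12G, which would replace serine 36 of the protein of that transcript with proline (S36P), was read in 73, 96 and 67 reads with SpG-ABE8e (1.12 ± 0.0678%), in 7, 10 and 13 with SpG-ABEmax (0.161 ± 0.0274%) and in 3, 0 and 2 in the controls. It was thus higher in every SpG-ABEmax sample than in any control. A16G, a synonymous change, was read in 14, 21 and 19 reads with SpG-ABE8e (0.258 ± 0.0464%), in 0, 5 and 5 with SpG-ABEmax (mean 0.0507%) and in 2, 0 and 1 in the controls. Both adenines were thus higher in every SpG-ABE8e sample than in any SpG-ABEmax sample, as were 18.6% of the 43 substitutions with at least 10 reads in all. A18G (S34P) was at background throughout, with 1, 2 and 2 reads with SpG-ABE8e, 0, 2 and 1 with SpG-ABEmax and 2, 0 and 2 in the controls.

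An adenine before the protospacer was edited as well. A-3G, at the eighth base of the intron (chr10:79694666), was read in 18, 27 and 42 reads with SpG-ABE8e (0.425 ± 0.214%), in 4, 1 and 4 with SpG-ABEmax (mean 0.0504%) and in no control read. The SpG-ABE8e samples were all above the others but spread widely, with replicate 3 highest. The adenine at −7 behaved differently. A-7G had means of 0.222% and 0.240% with SpG-ABE8e and SpG-ABEmax and 0.258% in the controls, and A-7C, the substitution with the most reads after A4G, had 0.523%, 0.693% and 0.488%. These groups overlapped, so the substitutions at −7 stood at the control level.

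To compare all substitutions on an equal footing, the 43 of 120 possible substitutions with at least 10 reads over the 9 samples were tested with edgeR's quasi-likelihood test on read counts, scaled by the total reads of each sample. A substitution was called at a Benjamini-Hochberg adjusted p below 0.05. Between the editors 5 were called (11.6%), and all 5 were higher with SpG-ABE8e: A4G, A12G, A-3G, A16G and C6T. The log2 fold change was 2.77 (SE 0.338) for A12G, with an adjusted p of 1.28e-10 by edgeR's quasi-likelihood test after Benjamini-Hochberg adjustment. In the same test it was 3.04 (SE 0.512) for A-3G, with an adjusted p of 1.37e-06, and 2.21 (SE 0.526) for A16G, with an adjusted p of 0.00079. C6T followed with 1.74 (SE 0.458) and an adjusted p of 0.00262. The target A4G had the smallest fold, 0.37 (SE 0.0165), with an adjusted p of 4.17e-33. That fold was bounded, since SpG-ABEmax already edited a mean of 71.8% of reads, so its rank does not show a smaller effect. As log2 odds of editing, the gain at the target was 2.36. Its call was lost under trimmed mean of M-values (TMM) factors (adjusted p = 0.376, log2 fold change 0.41) and in DESeq2, both with its own size factors (0.458, log2 fold change 0.46) and with total reads (0.422, log2 fold change 0.37). C6T lost its call without SpG-ABEmax replicate 3 (adjusted p = 0.0586) and in DESeq2 with total reads (0.0712).

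Against the controls, 7 substitutions were called for SpG-ABE8e (16.3%), of which 6 were higher (14%): A4G, A12G, A-3G, C6T, C6G and A16G. Their adjusted p by edgeR's quasi-likelihood test after Benjamini-Hochberg adjustment was at most 0.000659. The 1 lower (2.33%) was A4C, at an adjusted p of 0.000235 in that test, and its groups overlapped because the shallow control had none. A4C can lie only on reads without A4G, so this call is not independent of target editing. By overlap alone, 37.2% of the 43 were higher in every SpG-ABE8e sample than in any control, and 27.9% in every SpG-ABEmax sample. For SpG-ABEmax 3 were called (6.98%), A4G, C6T (0.0154) and C6G (0.0175). With this editor A12G and A-3G each had an edgeR adjusted p of 0.0887 after Benjamini-Hochberg adjustment and were not called. The calls of C6T and C6G depend on single samples: without control replicate 1 or 3, A4G alone was called for SpG-ABEmax (C6T and C6G at an edgeR adjusted p of 0.142 and 0.155), C6G was lost without SpG-ABEmax replicate 2 (0.0567), and DESeq2 also called 1.

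**Figure D3:**
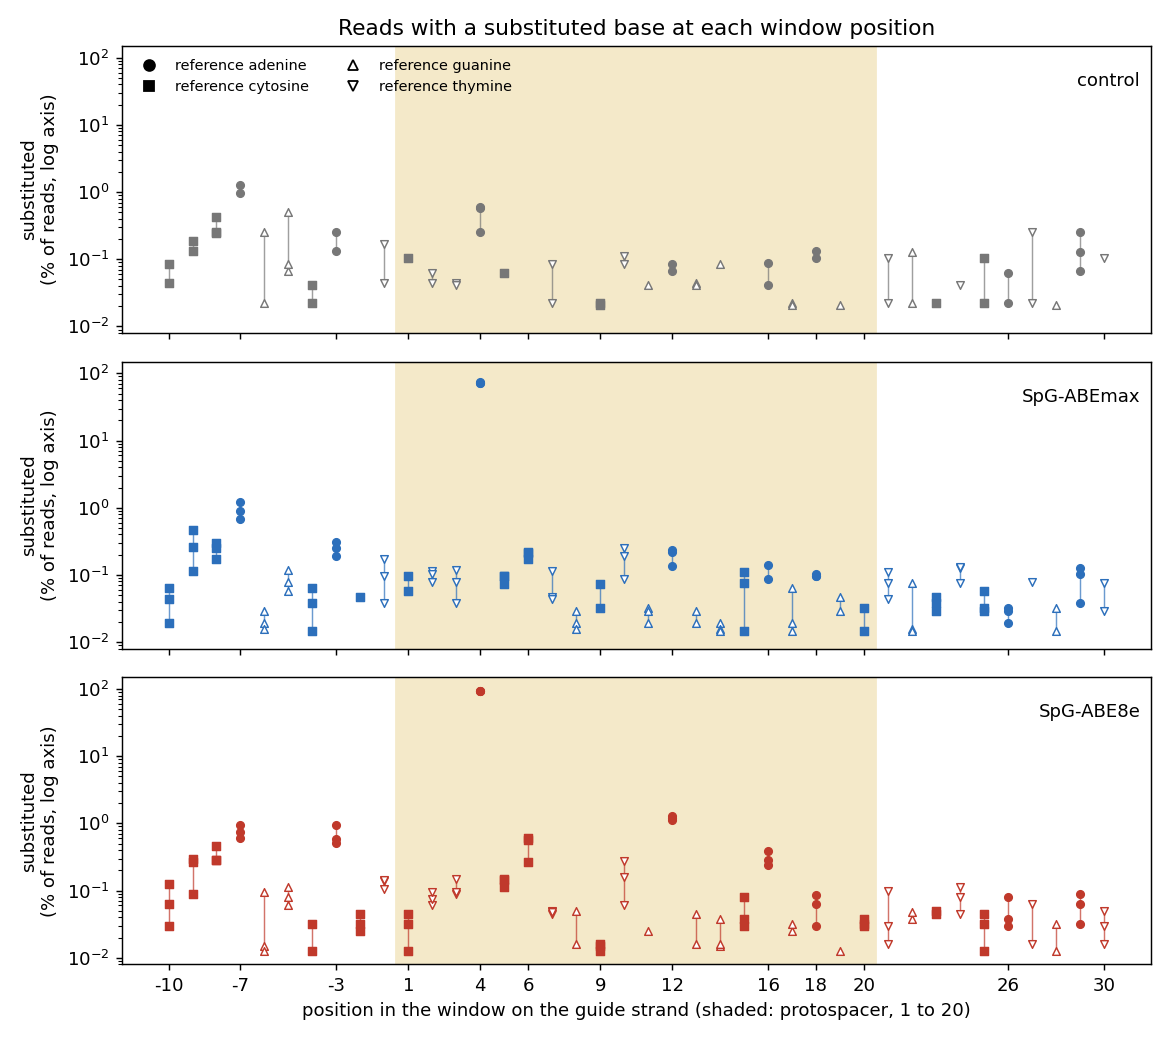
Percent of reads with a substituted base (y axis, log scale) at each of the 40 window positions (x axis, protospacer shaded), 1 panel per group and 1 marker per sample, with the marker giving the reference base and samples without such a read left out. Position 4 stands far above all others in both edited groups, and positions 12, −3, 6 and 16 stand higher with SpG-ABE8e than with SpG-ABEmax.

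The rest of the window was quiet in all groups. Of the 120 possible substitutions, 115 were read at least once. Outside positions 4, 12, −3, 6, 16 and −7, the share of reads with any substitution at a position lay between 0.00415% and 0.344% with SpG-ABE8e, between 0.0154% and 0.279% with SpG-ABEmax and between 0% and 0.305% in the controls. The highest of these was position −8 with SpG-ABE8e, where the controls had 0.305%. T-1C, which corresponds to A-to-G on the strand opposite to the guide strand, had means of 0.0540% and 0.00971%, higher in every SpG-ABE8e sample but not called (edgeR adjusted p = 0.209 after Benjamini-Hochberg adjustment).

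Cytosine changes were rare with both editors. Any change at the 6 protospacer cytosines was found in 0.840%, 0.797% and 0.573% of reads with SpG-ABE8e and in 0.443%, 0.587% and 0.321% with SpG-ABEmax, against 0.0222%, 0% and 0.189% in the controls. The editors overlapped, since SpG-ABEmax replicate 2 lay above SpG-ABE8e replicate 3 (exact permutation p = 0.2). On the means these changes were less frequent than A-to-G at the other protospacer adenines with SpG-ABE8e, 0.737% against 1.40%, and more frequent with SpG-ABEmax, 0.450% against 0.227%. The position that stood out was 6, the last base of exon 3 (chr10:79694658), which read as another base in 38, 48 and 17 reads with SpG-ABE8e (0.479 ± 0.181%), in 11, 14 and 12 with SpG-ABEmax (0.203 ± 0.0248%) and in no control read.

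The changes at position 6 were of several kinds. C6T, which would replace alanine 38 with threonine (A38T), was read in 25, 31 and 11 reads with SpG-ABE8e (mean 0.312%) and in 5, 7 and 5 with SpG-ABEmax (mean 0.0934%). C6G (A38P) was read in 9, 11 and 6 reads (mean 0.122%) and in 3, 6 and 6 (mean 0.0801%), and C6A (A38S) in 4, 6 and 0 and in 3, 1 and 1. In SpG-ABE8e samples C6T was the most frequent of the 3 in each replicate, whereas with SpG-ABEmax C6T and C6G were close. C5, the first intron base and partner of the G of the donor GT, was changed in 10, 9 and 9 reads with SpG-ABE8e (mean 0.135%), in 5, 6 and 5 with SpG-ABEmax (mean 0.0881%) and in 0, 0 and 3 in the controls. At the other cytosines the groups overlapped at a few reads each. C1 was changed in 3, 1 and 2 against 3, 6 and 0 reads, C9 in 1, 1 and 1 against 0, 2 and 5, C15 in 2, 3 and 5 against 4, 7 and 1, and C20 in 2, 3 and 2 against 0, 2 and 1.

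On which reads the position 6 changes lay differed between the editors. Here reads without an indel were split by whether the target was edited or unchanged. With SpG-ABE8e, position 6 was changed in 38 of 6266, 47 of 7386 and 17 of 5809 target-edited reads (0.606%, 0.636% and 0.293%). With SpG-ABEmax it was changed in 2 of 3797, 4 of 4476 and 2 of 4870 (0.0527%, 0.0894% and 0.0411%). On target-edited reads the groups were thus far apart.

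On reads with the target unchanged the counted order was the other way. With SpG-ABEmax, position 6 was changed in 9 of 1332, 10 of 1775 and 10 of 1930 such reads (0.676%, 0.563% and 0.518%). With SpG-ABE8e it was changed in 0 of 380, 1 of 599 and 0 of 436. These few reads allow shares of up to 0.789% and 0.688% in replicates 1 and 3, so a lower level than with SpG-ABEmax was not detectable there sample by sample. The limits also lie above the shares on edited reads in those replicates, so the sign of the difference between edited and unchanged reads is resolved in neither. In replicate 2 the share on unchanged reads rests on 1 read. As counted, the share on edited reads minus that on unchanged reads was 0.456 ± 0.157 percentage points with SpG-ABE8e and -0.525 ± 0.0852 with SpG-ABEmax, positive in 3 of 3 samples and negative in 3 of 3, with an exact permutation p = 0.1 for their difference. Of the reads with a position 6 change, 100%, 97.9% and 100% also carried A4G with SpG-ABE8e, against 18.2%, 28.6% and 16.7% with SpG-ABEmax. Over all reads, A4G was carried by 92.1% to 94.0% with SpG-ABE8e and by 71.0% to 73.3% with SpG-ABEmax.

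**Figure D4:**
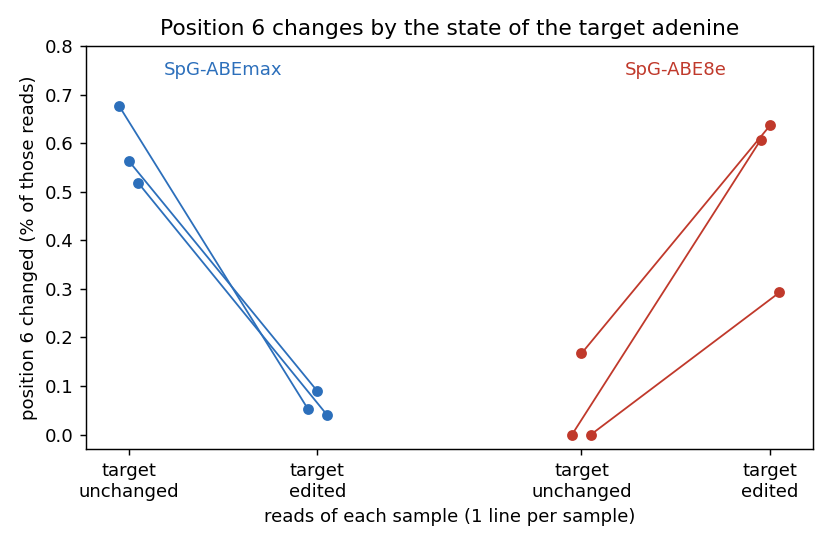
Percent of reads with a changed base at position 6 (y axis) among reads with the target adenine unchanged and among reads with it edited (x axis), 1 line per sample. The lines of the 3 SpG-ABEmax samples fall from 0.518% to 0.676% on unchanged reads to at most 0.0894% on edited reads. Those of the 3 SpG-ABE8e samples rise, each from a share that rests on at most 1 changed read.

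The second adenine edits were also split by the state of the target. With SpG-ABE8e, where most reads are target-edited, A12G was found on 73, 92 and 66 target-edited reads and on 0, 2 and 1 reads with the target unchanged. With SpG-ABEmax it was found on 4, 7 and 8 against 3, 3 and 4, so the reads with A12G were target-edited in 57.1%, 70% and 66.7%. Of all reads with this editor, 71.0% to 73.3% carried A4G. Every A16G read without an indel carried A4G, in both groups, at 14, 21 and 18 reads and 0, 5 and 5. With SpG-ABE8e the limits on unchanged reads (0.501% to 0.789%) exceed the A16G shares on edited reads (0.223% to 0.310%), so no difference is resolved there. With SpG-ABEmax none is resolved either. The limits of 0.169% and 0.155% in replicates 2 and 3 exceed the shares of 0.112% and 0.103%, and replicate 1 held no A16G read.

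The alleles were also tested as wholes. Over the 9 samples 518 distinct window alleles were read, of which 356 occurred in 1 sample only and 305 as 1 read, while 16 occurred in all 6 edited samples. The 10 most frequent alleles of the edited samples made up 96.3% to 98.0% of their reads. They were A4G and the reference, then A4G A12G, A-7C A4G, A-3G A4G, A4G C6T, A-7C, A4G A16G, A-7G A4G and A-3C A4G. A-7C A4G was read in 21, 44 and 25 reads with SpG-ABE8e and 14, 31 and 25 with SpG-ABEmax, A-7G A4G in 7, 12 and 9 and 5, 6 and 6, and A-3C A4G in 11, 7 and 5 and 5, 3 and 6.

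Of the 32 alleles with at least 10 reads over the 6 edited samples, 13 were called between the editors (40.6%) by edgeR's quasi-likelihood test with Benjamini-Hochberg adjustment, 7 higher (21.9%) and 6 lower (18.8%) with SpG-ABE8e. Higher were the allele with A4G as its only change in the whole window (mean 88.3% against 69.6% of reads, log2 fold change 0.34) and the alleles with a further change on the same read. The first is narrower than the target edit alone in the protospacer given above. The call of the allele with A4G only was lost in DESeq2 with its own size factors (adjusted p = 0.260, log2 fold change 0.33). A4G A12G was read in 70, 84 and 58 reads against 4, 5 and 7, with a log2 fold change of 3.51 (SE 0.285). A-3G A4G was read in 16, 24 and 36 against 4, 0 and 3, with a log2 fold change of 3.19 (SE 0.612). A4G C6T was read in 25, 27 and 9 against 1, 4 and 1, with a log2 fold change of 3.07 (SE 0.584). A4G A16G was read in 12, 18 and 16 against 0, 4 and 5, with a log2 fold change of 2.13 (SE 0.538). A4G C6G was read in 8, 7 and 6 reads with SpG-ABE8e and in none with SpG-ABEmax. The editors did not overlap in any of these, and 28.1% of the 32 alleles were higher without overlap.

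Lower with SpG-ABE8e were alleles without the target edit. The reference allele made up a mean of 6.46% against 26.2% of reads (log2 fold change -2.02, SE 0.0801). A-7C without the target edit was read in 3, 3 and 3 reads against 12, 21 and 13, C6T alone in 0, 0 and 0 against 4, 3 and 3, and the deletion of the whole window in 3, 1 and 0 against 11, 6 and 10. The 3 called alleles beyond the 10 with the smallest p are named after their values were seen: C6G alone, read in 0, 1 and 0 against 2, 6 and 5 reads, A4C alone, in 1, 1 and 3 against 4, 5 and 6, and C-8A A4G, which was higher, in 7, 9 and 8 against 1, 3 and 1. The call of A4C alone was lost under most alternatives, for example with TMM factors (adjusted p = 0.0990 by edgeR's quasi-likelihood test with Benjamini-Hochberg adjustment) and in 5 of 6 fits that left out a sample. C-8A A4G lost its call in DESeq2 (0.0620 and 0.0793), without a filter on low counts (0.0852) and without SpG-ABEmax replicate 3 (0.0541), and C6T alone and C6G alone lost theirs without the filter (0.109 and 0.117). The adjusted p was 2.35e-11 for the reference and at most 0.00482 for the 10 alleles with the smallest p, from edgeR's quasi-likelihood test with Benjamini-Hochberg adjustment. Alleles with and without A4G share the reads of a sample, so their changes are not independent of target editing.

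Insertions and deletions were rare with both editors, and deletions were the less frequent with SpG-ABE8e. An indel in the window was found in 0.270%, 0.486% and 0.478% of reads with SpG-ABE8e and in 1.08%, 0.729% and 0.743% with SpG-ABEmax, against 0.0444%, 0% and 0.0842% in the controls. The groups did not overlap (exact permutation p = 0.1). Deletions were read in 10, 19 and 16 reads with SpG-ABE8e (0.214 ± 0.0560%) and in 45, 32 and 41 with SpG-ABEmax (0.657 ± 0.187%), 0.325 times as often on the means. Insertions showed no such difference, at 8, 20 and 14 reads (0.197 ± 0.0683%) and 11, 14 and 10 (0.193 ± 0.0414%), with none in the controls (exact permutation p = 0.8).

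The deletions that differed were long. The Cas9 nick falls between positions 17 and 18. Deletions covering both of these bases were read in 6, 7 and 7 reads with SpG-ABE8e (mean 0.0962%) and in 33, 26 and 22 with SpG-ABEmax (mean 0.456%). Deletions that reached an edge of the window were read in 6, 5 and 8 reads and in 31, 22 and 33 (means 0.0932% and 0.476%). Neither pair of groups overlapped. Deletions of at least 2 bases that stayed inside the window were read in 4, 13 and 6 reads and in 13, 9 and 3, with overlap, and single-base deletions in 0, 1 and 2 and in 1, 1 and 5, against 2, 0 and 4 in the controls. By the deposited number of deleted bases, the median deletion was 40, 18 and 23.5 bases with SpG-ABE8e and 44, 34 and 35 bases with SpG-ABEmax, and the longest reached 74 bases. A window of 40 bases shows only part of such deletions.

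**Figure D5:**
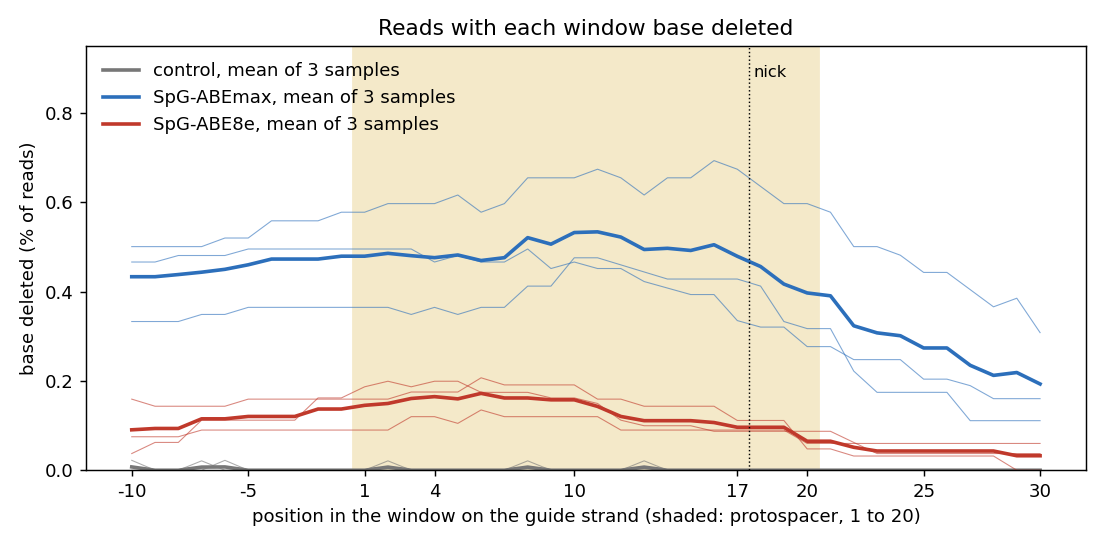
Percent of reads in which each window base was deleted (y axis) by position on the guide strand (x axis, protospacer shaded), for the SpG-ABE8e, SpG-ABEmax and control samples, with thick lines for group means. The SpG-ABEmax mean is 0.534% at position 11 and 0.219% at position 29, and the SpG-ABE8e mean is lower at both, at 0.143% and 0.0324%.

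The profile of deleted bases was uneven along the window. With SpG-ABEmax the mean share of reads lacking a base was 0.438% at position −8 and 0.534% at position 11, and it had dropped to 0.219% at position 29. The target base itself was deleted in 8, 16 and 11 reads with SpG-ABE8e and in 31, 23 and 32 with SpG-ABEmax. The 5 most frequent indel alleles were all deletions. The whole window was lost in 31 reads of the 6 edited samples, positions −10 to 21 in 13, −10 to 19 in 6 and −7 to 11 in 5, and 4 alleles followed with 4 reads each.

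Insertions were placed in a narrow stretch. Of 77 reads with an insertion in the 6 edited samples, 32 had it after position 4 and 30 after position 10. Their median length was 5, 6 and 6.5 bases with SpG-ABE8e and 7, 6 and 7.5 with SpG-ABEmax. Tandem repeats of the flanking sequence accounted for 4, 5 and 5 and for 4, 3 and 6 of them, and each inserted repeat that held the target base carried G there, in 2, 3 and 2 and in 1, 3 and 3 reads. Which copy of a repeat counts as inserted was set by the alignment. The base aligned to position 4 was G in 3, 4 and 1 and in 1, 2 and 3 of the insertion reads. Some insertion reads did not show position 4, and the cause of the low counts was not tested.

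The exon 3 donor was last compared with the donors of exons 7, 8 and 9, edited with the same 2 editors and their own sgRNAs. Their protospacers are given with the target in capitals and with the PAM, which shows that 2 of the 4 sites have the TGC PAM and 2 have TGG.
exon 3, PAM TGC: cttAcctgctgaggcagagc
exon 7, PAM TGG: cttAccaaaggctgctgcca
exon 8, PAM TGG: aatAcctgcggcctgaggga
exon 9, PAM TGC: acatAcctcagggttcagat

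With SpG-ABE8e the exon 3 donor was edited at the target in more reads than any of the other 3 donors. Its mean of 92.9% exceeded those of exon 7 (76.9%), exon 8 (67.6%) and exon 9 (73.0%) by 16 to 25.3 percentage points. No sample of another donor reached the lowest exon 3 sample (exact permutation p = 0.1 in each comparison, 0.1 after Benjamini-Hochberg adjustment over 6 comparisons). It was also the purest with this editor: 97.3% of target-edited reads had no other change in the protospacer, against 9.14%, 89.2% and 60.1% at exons 7, 8 and 9, again without overlap. These shares also count changes that are present without an editor. At exon 8 a protospacer cytosine was changed in a mean of 2.34% of control reads and 1.47% of SpG-ABE8e reads.

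The advantage of SpG-ABE8e over SpG-ABEmax at exon 3 fell within the range of the other donors in percentage points. It was 21.1 points at exon 3, where single pairs of samples gave 18.8 to 23.0, against 56.8 at exon 7 (52.8 to 59.0), 20.6 at exon 8 (15.0 to 26.7) and 15.2 at exon 9 (10.3 to 19.0). In points, the range of single pairs at exon 3 lay below that at exon 7 and overlapped those at exons 8 and 9. The exact permutation test that exchanges the editors within each site gave p = 0.145 for exon 3 against exon 7, p = 0.945 for exon 8 and p = 0.6 for exon 9 (0.435, 0.945 and 0.9 after Benjamini-Hochberg adjustment). That exchange supposes no difference between the editors at either site, so it cannot decide whether the gains of the sites are equal. As log2 odds of editing, the gain was 2.36 at exon 3 (pairs 2.08 to 2.68), 3.73 at exon 7 (3.39 to 3.93), 1.24 at exon 8 (0.90 to 1.60) and 0.98 at exon 9 (0.67 to 1.23). On that scale the ranges of exon 3 and of each other donor did not overlap, which describes these samples and is not a test.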

How the data were processed

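Targeted amplicon sequencing of genomic DNA was analysed in 9 samples of the exon 3 donor, with 26 samples of 3 other donors for comparison. The authors amplified each site in 2 PCR steps, sequenced it on a MiSeq and aligned reads with CRISPResso2, whose version is not given in the sources used here. For each allele of the window the authors deposited a read count, without normalization, and the percent of reads; the counts were used. The numbers of deleted, inserted and substituted bases deposited with each allele cover more than the window: 17.0% to 22.2% of edited reads had a substitution beyond it. Sites were located by sequence match to GRCm39, since no build is named for the amplicons.

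Python 3.11.15 (numpy 2.4.6, scipy 1.17.1, matplotlib 3.10.9) gave shares of all reads per sample, Wilson intervals and two-sided exact permutation tests. R 4.3.3 with edgeR 4.0.16 (quasi-likelihood, total reads as offset, at least 10 reads per feature) gave the tests over substitutions and alleles, and DESeq2 1.42.0 an alternative. On simulated tables with 43 substitutions, the comparison of the editors called 77.5% of 4-fold and 22.7% of 2-fold changes and 0.491% of unchanged features. These tables gave every feature the same fixed spread between replicates and held increases only. Their rates need not hold for features with a wider spread. Protospacer adenines and cytosines were always named. Beyond these, called substitutions, the 10 most frequent alleles, the 5 most frequent indel alleles and the 10 called alleles with the smallest p were named. Comparisons and features were chosen with earlier results of these data known.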

Additional observations from a re-analysis of the deposited data

Results flagged for a closer look

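For 3 changes, the share on target-edited reads minus the share on target-unchanged reads had opposite signs in all samples of the 2 editors. For any change at C6 the 2 editors differed by 0.981 percentage points (0.456 ± 0.157 with SpG-ABE8e, -0.525 ± 0.0852 with SpG-ABEmax, n = 3 each, exact permutation p = 0.1). For C6T alone they differed by 0.516 points (0.336 ± 0.127 and -0.180 ± 0.0973, exact permutation p = 0.1), where the SpG-ABE8e values rest on 0 reads with the target unchanged in each sample. Those counts of 0 allow shares of 0.501% to 0.789%, above the shares on edited reads, so the positive sign is not resolved, and the same holds for any change at C6 in replicates 1 and 3. In replicate 2 the share of any change at C6 on unchanged reads rests on 1 of 599 reads. For A12G they differed by 1.05 points (0.995 ± 0.148 and -0.0585 ± 0.0553, exact permutation p = 0.1), where the SpG-ABEmax values rest on 3, 3 and 4 reads with the target unchanged. The single SpG-ABEmax samples gave -0.120, -0.0126 and -0.0430 points on these few reads, so the negative sign is not resolved. Changes were flagged because the signs were opposite in every sample, which already separates the groups. Each exact permutation p of 0.1, the smallest that 3 samples against 3 allow, was thus fixed by the flagging and adds no support. No cause was tested.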

How the results depend on the processing

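Over 22 main results, 8 of 254 alternatives reversed a direction, took a difference to 0 or changed a count of calls over 1.5-fold. Smaller moves of a count were frequent. The exact permutation tests had no call to lose, and other changes in the size of a difference were not counted among the 8. With a minimum of 0.2% of reads per allele and sample, the indel difference between SpG-ABE8e and the control was 0 points, since no SpG-ABE8e indel allele reached that share. The indel difference between the editors shrank with it from -0.439 to -0.0706 points. Exon 3 minus exon 8 in the gain of SpG-ABE8e over SpG-ABEmax ranged from -1.96 to 2.74 points when 1 sample was left out, and it turned negative without exon 3 SpG-ABE8e replicate 1 (-0.103) or exon 8 SpG-ABEmax replicate 1 (-1.96). For SpG-ABEmax against the control, DESeq2 called 1 substitution with either scaling, and leaving out 1 sample gave 1 to 3. Between the editors, DESeq2 with total reads called 3 and leaving out 1 sample gave 4 to 5. Alleles called ranged from 9 to 15, with 9 where no filter on low counts was used. Causes were not tested.

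Of 63 named substitutions and alleles, with 912 alternatives, 31 calls were lost, 1 was gained and none was reversed. No pairing by replicate number was seen: same-numbered samples correlated between -0.266 and 0.0247 in their deviations over 43 substitutions. Most of these substitutions had few reads, so the correlations cannot exclude that same-numbered samples were handled together. With the replicate number as a block, 7, 3 and 5 substitutions and 12 alleles were called, the target editing difference stayed at 21.1 points, and each exact sign-flip p was 0.25, the smallest that 3 pairs allow. The controls limit what can be said of rare changes, since 1 of 3 holds 399 reads.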
